A study of Mus musculus with 2 samples.

Results

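Genes of ribosome biogenesis and of RNA polymerase I were taken from the symbols of a mouse kidney RNA-seq table. The rule took every Nop, Utp, Rrp and Nol symbol followed by a number, Polr1a to Polr1e, Gnl2, Gnl3 and Gnl3l, and Bop1, Wdr12, Pes1, Ncl, the Npm genes, Fbl, Nip7 and Mphosph10. It found 52 genes among 30744 symbols. The study holds 2 libraries of total RNA. The tumour library came from a kidney tumour of a doxycycline-treated animal with the genotype Tet-OSKM/mPer2-luc, in which doxycycline switches on the reprogramming factors Oct4, Sox2, Klf4 and c-Myc and a luciferase reports the clock gene Per2. The normal library came from a kidney labelled WT that received no doxycycline. Both animals were of C57BL/6 x DBA/2 F1 background. The labels describe chimeras grown from embryonic stem cells with Rosa26-M2rtTA, TetO-OSKM and mPer2-luc, injected into hybrid blastocysts. Host cells without the transgenes remain in such an animal. Whether the normal kidney was chimeric, and the age and sex of the animals, are details not given in the sources used here. Genotype, doxycycline and tumour differ together between the libraries and cannot be told apart. With 1 library per group, every value compares these libraries and not the conditions, and no p-value is given.

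Ribosome synthesis begins in the nucleolus, where RNA polymerase I copies the ribosomal RNA genes into one long precursor. Small nucleolar ribonucleoproteins (snoRNPs) modify that precursor, the small subunit processome and the large subunit assembly factors cut and fold it, and chaperones such as nucleolin and nucleophosmin accompany it. The pathway takes a large share of the transcription of growing cells, and many of its genes are known targets of Myc. In the adult kidney most cells divide rarely.

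Of the 52 genes, 50 had at least 20 reads over both libraries and are called measured here. Counts were scaled to the size of each library by TMM, a trimmed mean of gene-wise ratios, and each gene has a ratio of scaled counts, tumour over normal kidney, with an exact 95% counting interval. A gene is called higher or lower where that ratio reaches 2-fold and its interval excludes 1. By that rule 37 of the 50 were higher, 1 was lower and 12 were neither, while 31.2% of all 16326 measured genes were higher and 28% were lower. The median log2 ratio was 1.52 over the 50 genes, a 2.87-fold difference, and 0.08 over all measured genes. Scaled ratios were above 1 for 48 of the 50 genes, beside 8469 of all 16326 measured genes, and called at a 4-fold threshold for 13, beside 18.5% of all measured genes. In the 50 genes the log2 ratio ran between -4.38 for Nol3 and 3.76 for Npm1. In bulk tissue, more cells of a type and more RNA per cell cannot be told apart.

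Libraries of such different make-up can be scaled in several ways, and the position of a gene within its own library does not depend on that choice. Ranked by RPKM among all measured genes, the median gene of the group stood at the 88.2nd percentile in the tumour library and at the 64.9th in the normal kidney. The rank was higher in the tumour for 49 of 50 genes, against 51.5% of all measured genes, and lower for Nol3. In the tumour library 20 of these genes lay among the top 10% of genes, and in the normal kidney 3 did, Npm1, Nop10 and Rrp1. Together the 52 genes took 1.05% of counted reads in the tumour library (exact Clopper-Pearson 95% interval 1.044% to 1.053%) and 0.174% in the normal kidney (0.172% to 0.175%). Npm1 and Ncl alone made up 42.7% of those reads in the tumour (42.5% to 42.9%) and 19.6% in the normal kidney (19.2% to 19.9%).

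**Figure D1:**
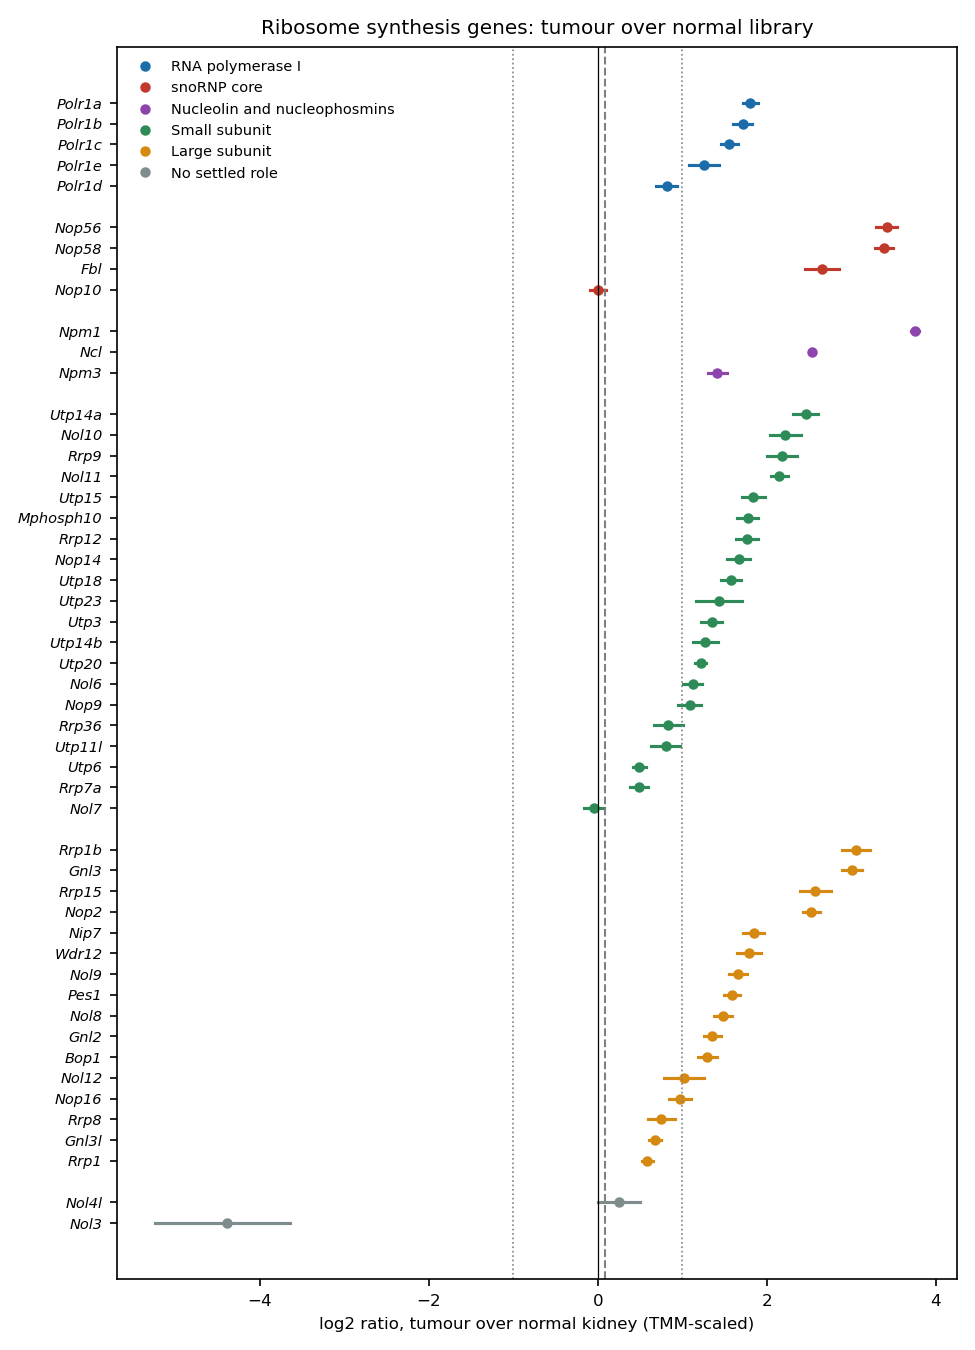
Log2 ratio after TMM scaling, tumour over normal kidney, for the 50 measured genes grouped by role; points are ratios, bars are exact 95% counting intervals, dotted lines mark 2-fold and the dashed line the median of all measured genes at 0.08. Npm1, Nop56 and Nop58 lie farthest to the right, Nop10 and Nol7 lie at 0, and Nol3 is the gene on the left.

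RNA polymerase I itself was higher in 4 of its 5 measured subunits here, beside 31.2% of all measured genes. Polr1a (chromosome 6, 71909053 to 71980267), the largest catalytic subunit, had 4602 reads in the tumour library and 1255 in the normal kidney, which is 183 against 52.2 CPM (read counts scaled by TMM to a fixed library size) and a 3.50-fold higher level (interval 3.29 to 3.73). Polr1b (chromosome 2, 129100996 to 129126595), the other large catalytic subunit, had 2837 reads in the tumour and 824 in the normal kidney and was 3.28-fold higher (3.04 to 3.55). Polr1c (chromosome 17, 46243920 to 46248045), which polymerase I shares with polymerase III, had 3075 and 996 reads in tumour and normal kidney and was 2.95-fold higher (2.74 to 3.17). Polr1e (chromosome 4, 45018609 to 45034279), a subunit that works in initiation, had 907 and 363 reads in tumour and normal kidney and was 2.38-fold higher (2.11 to 2.70). Polr1d (chromosome 5, 147077346 to 147079086), also shared with polymerase III, had 1530 reads in the tumour and 828 in the normal kidney, with a ratio of 1.76 (1.62 to 1.92) that falls short of 2-fold. It passes 2-fold under the scalings with upper quartile, header totals, plain library sums and RPKM.

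The proportions of the subunits to each other were compared within each library. Per length, Polr1d stood at 2.58 times the RPKM of Polr1a in the tumour library and at 5.13 times in the normal kidney, and Polr1e at 0.389 times in the tumour and 0.571 times in the normal kidney. Polr1c stood at 3.60 times the RPKM of Polr1a in the tumour and 4.28 times in the normal kidney, and Polr1b at 1.08 and 1.15 times in tumour and normal kidney. Polr1c, Polr1d and Polr1e stood lower relative to Polr1a in the tumour, with ratio intervals below that of Polr1a, while those of Polr1a and Polr1b overlap. These quotients within a library are free of the scaling. They compare deposited gene models, whose length need not be that of the transcripts made. In deposited RPKM (reads per kilobase of model, scaled by the header total), Polr1c stood highest among the polymerase I subunits called higher. It had 71.5 in the tumour and 19.0 in the normal kidney, and Polr1d had 51.4 in the tumour and 22.8 in the normal kidney. Polr1b had 21.5 RPKM in the tumour and 5.12 in the normal kidney, Polr1a 19.9 and 4.45 in tumour and normal kidney, and Polr1e, the lowest of the 5 in both, 7.74 and 2.54.

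Other genes of the polymerase I machinery were described from lists of textbook members. Of the 8 further subunits, including those shared with the other polymerases, 4 were higher and none was lower, with a median log2 ratio of 0.94. Over all measured genes 31.2% were higher and 28% lower. Polr2h, a subunit common to all 3 polymerases, was 5.03-fold higher (4.46 to 5.68) and Cd3eap, the partner of Polr1e, was 2.89-fold higher (2.51 to 3.35), while the small common subunit Polr2l had a log2 ratio of -0.94. Of 10 factors listed as acting with polymerase I, 8 were higher and none was lower, with a median of 1.16. Tcof1, the treacle protein that ties polymerase I to ribosomal RNA genes, was 8.02-fold higher (7.15 to 9.01), and Taf1d, a subunit of the promoter selectivity factor, 7.68-fold (6.93 to 8.51). The initiation factor Rrn3 was 3.57-fold higher (3.36 to 3.79) and the architectural factor Ubtf 2.26-fold (2.16 to 2.37), both named beyond the rule for their central role. The termination factor Ttf1 had the lowest ratio of this list, 1.53 (1.38 to 1.70). Subunits that belong to polymerase II alone were higher for 2 of 7, with a median of 0.63, and those of polymerase III alone for 3 of 11, with 1 lower and a median of 0.28, both shares close to the 31.2% of all measured genes. The medians of the 3 enzymes were set side by side without a test of the difference. Polr2a, the largest subunit of polymerase II, was 2.98-fold higher (2.82 to 3.14) and Polr2d 2.91-fold (2.59 to 3.28), while Polr2i had the lowest ratio of its list, 1.01 (0.900 to 1.13). With plain library sums 5 of the 7 polymerase II subunits and 5 of the 11 polymerase III subunits were higher, beside 42.2% of all measured genes.

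Within the polymerase III list the paralogs Polr3g and Polr3gl, alternative subunits of polymerase III, stood at its ends. Polr3g had 1327 reads in the tumour and 314 in the normal kidney and was 4.03-fold higher (3.56 to 4.57). Polr3gl had 73 reads in the tumour and 419 in the normal kidney and was 6.02-fold lower (4.68 to 7.82). Polr3b, the second largest subunit of polymerase III, was 2.91-fold higher (2.68 to 3.15).

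**Figure D2:**
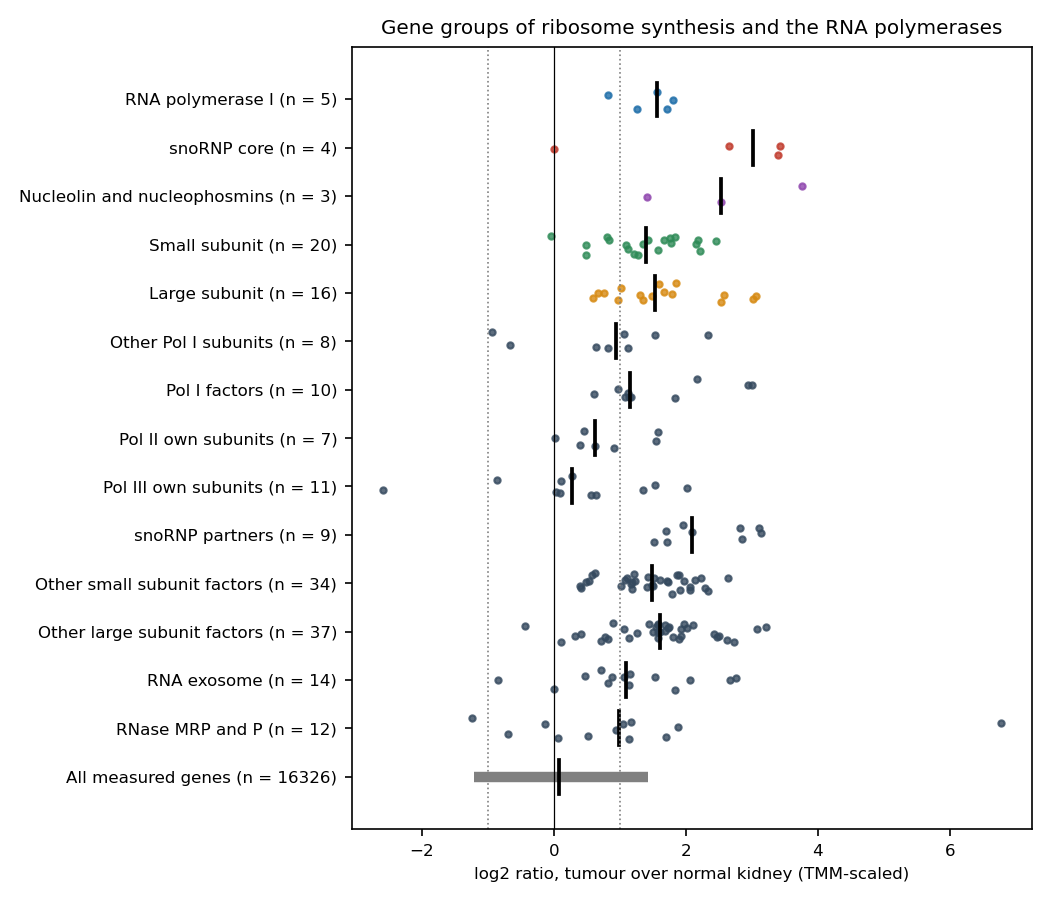
Log2 ratio after TMM scaling, tumour over normal kidney, for each measured gene (points) in 5 role groups of the set and 9 further lists; black bars are medians, the grey bar spans the quartiles of all measured genes, and dotted lines mark 2-fold. The snoRNP core genes of the set (3.02) and the nucleolin and nucleophosmin genes (2.54) have the medians farthest to the right. The point at 6.77 is Rpp25, whose value rests on the floor of 3 counts set for 0 reads in the normal kidney.

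Nop56, Nop58 and Fbl, core proteins of the box C/D snoRNPs, which guide methylation of ribosomal RNA, were among the most different genes of the set. Nop56 (chromosome 2, 130274412 to 130279313), a scaffold protein of these particles, had 6528 reads in the tumour library and 581 in the normal kidney, 259 against 24.2 CPM, and was 10.7-fold higher (9.85 to 11.7). Its partner Nop58 (chromosome 1, 59685006 to 59711510) had 9137 reads in the tumour and 832 in the normal kidney, 362 against 34.6 CPM, and was 10.5-fold higher (9.76 to 11.3). Fbl (chromosome 7, 28169748 to 28179269), fibrillarin, the methyltransferase of the particle, had 1598 reads in the tumour and 242 in the normal kidney and was 6.30-fold higher (5.50 to 7.24). The intervals of Nop56 and Nop58 overlap each other and lie above that of Fbl. Nhp2l1, a further core protein of these particles that lies outside the rule, was 3.28-fold higher (2.84 to 3.81). Per length, Nop56 stood at 2.495 times the RPKM of Fbl in the tumour and 1.47 times in the normal kidney. In RPKM, Nop58 had 140 in the tumour and 10.5 in the normal kidney, Nop56 105 and 7.64 in tumour and normal kidney, and Fbl 41.9 and 5.21.

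Nop10 (chromosome 2, 112261926 to 112262898), a small protein of the box H/ACA snoRNPs, which guide pseudouridylation, did not follow. It had 1838 reads in the tumour and 1747 in the normal kidney, 72.9 against 72.6 CPM, a ratio of 1.004 (0.940 to 1.07). Its RPKM was 75.3 in the tumour and 58.7 in the normal kidney, and in the normal kidney it stood above Nop58, Nop56 and Fbl. Its partners in the same particles did differ. The pseudouridine synthase Dkc1 had 5013 reads in the tumour and 542 in the normal kidney and was 8.82-fold higher (8.07 to 9.66), and Gar1 had 729 and 81 reads in tumour and normal kidney and was 8.59-fold higher (6.82 to 10.9). Nhp2, the remaining core protein, was 2.87-fold higher (2.69 to 3.08), the smallest ratio of its list. All 9 snoRNP partners, which include the assembly factors Naf1, Shq1, Nufip1, Ruvbl1 and Ruvbl2, were higher, beside 31.2% of all measured genes. Their median log2 ratio was 2.10.

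Some genes of the set carry snoRNAs in their introns, so that the same locus gives a protein of ribosome synthesis and a guide RNA. The table holds 8 snoRNA models inside 4 of these genes, and none lies within an exon of a coding transcript of its host in GENCODE M21. The following sequences, printed because they are made from the introns of genes described here, come from the GENCODE M21 transcripts on GRCm38; capitals mark the first TGATGA (box C core) and the last CTGA (box D) in Snord sequences, where present, and the last ACA in Snora75. They are written as DNA, 5′ to 3′. Snord57 and Snord110 lie in Nop56, Snord11 and Snord70 in Nop58, Snord82 and Snora75 in Ncl, and Snord19 and Snord69 in Gnl3.
Snord57 (chr2:130278016-130278087, plus strand): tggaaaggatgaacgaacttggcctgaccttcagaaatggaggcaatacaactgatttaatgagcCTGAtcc
Snord11 (chr1:59704790-59704873, plus strand): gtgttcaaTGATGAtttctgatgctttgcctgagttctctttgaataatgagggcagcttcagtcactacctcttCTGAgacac
Snora75 (chr1:86351169-86351301, minus strand): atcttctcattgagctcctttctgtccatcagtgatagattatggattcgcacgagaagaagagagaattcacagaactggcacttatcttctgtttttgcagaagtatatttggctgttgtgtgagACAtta
Snord69 (chr14:31014287-31014366, minus strand): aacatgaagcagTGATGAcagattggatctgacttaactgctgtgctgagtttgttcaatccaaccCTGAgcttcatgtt

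Counts over these short models were low. Snora75, an H/ACA guide in nucleolin, had 54 reads in the tumour and 3 in the normal kidney, a ratio of 17.2 with a wide counting interval (5.57 to 85.9). Snord57 had 39 reads in the tumour and 3 in the normal kidney (ratio 12.4, 3.94 to 62.7), and Snord19 had 45 and 6 reads in tumour and normal kidney (7.16, 3.04 to 20.5). Snord69 had 35 reads in the tumour and 7 in the normal kidney (4.77, 2.09 to 12.7), Snord11 had 12 and 1 reads in tumour and normal kidney, and Snord82 11 and 1. Snord110 and Snord70 had 5 and 2 reads in the tumour and 0 in the normal kidney. Summed over the 8 models, 203 reads in the tumour stood against 21 in the normal kidney, 9.22-fold higher (5.87 to 15.2). Of 59 measured Snord and Snora symbols in the whole table, 41 were higher and 2 lower, beside 31.2% and 28% of all measured genes. The median log2 ratio of these symbols was 2.25. Summed like the 8 models, all 89 such symbols had 9632 reads in the tumour and 3816 in the normal kidney, 2.41-fold higher (2.319 to 2.501). Reads of a mature snoRNA and of the unspliced host transcript cannot be told apart in these counts, and these models were chosen after their values had been seen.

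Of the nucleolar chaperones, nucleophosmin and nucleolin had the most reads of the set. Npm1 (chromosome 11, 33152498 to 33163206), nucleophosmin, which shuttles between nucleolus and cytoplasm, had 57340 reads in the tumour and 4049 in the normal kidney, 2275 against 168 CPM, and was 13.5-fold higher (13.1 to 14.0). Its RPKM of 1225 in the tumour and 71.0 in the normal kidney was the highest of the set in both libraries. Ncl (chromosome 1, 86344719 to 86359455), nucleolin, had 35923 reads in the tumour and 5900 in the normal kidney, 1425 against 245 CPM, and was 5.81-fold higher (5.65 to 5.97). Per length, its RPKM was 131 in the tumour and 17.7 in the normal kidney. That lay below Nop58 in the tumour and below Nop10, Rrp1, Npm3, Polr1d and Polr1c in the normal kidney. This order rests on the lengths of the deposited models, 8243 bases for Ncl and 1961 for Nop58. The Nop58 model has 0.206 times the length of its longest coding transcript in GENCODE M21, and that of Ncl 1.005 times. The longest transcript need not be the one mainly made, so these quotients do not tell which RPKM is off. Npm3 (chromosome 19, 45747734 to 45749563), a smaller relative of nucleophosmin, had 2333 reads in the tumour and 833 in the normal kidney and was 2.67-fold higher (2.47 to 2.90). Npm2, a histone chaperone of the oocyte, had 3 reads in the tumour and 4 in the normal kidney and was not measured. Among the reads of the Npm genes, Npm1 took 96.1% in the tumour (95.9% to 96.2%) and 82.9% in the normal kidney (81.8% to 83.9%), and Npm3 took 3.91% in the tumour (3.75% to 4.07%) and 17.0% in the normal kidney (16.0% to 18.1%). The counting of reads with several mapping places is not known here, and Npm1 has processed copies elsewhere in the mouse genome, so its count carries that uncertainty.

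**Figure D3:**
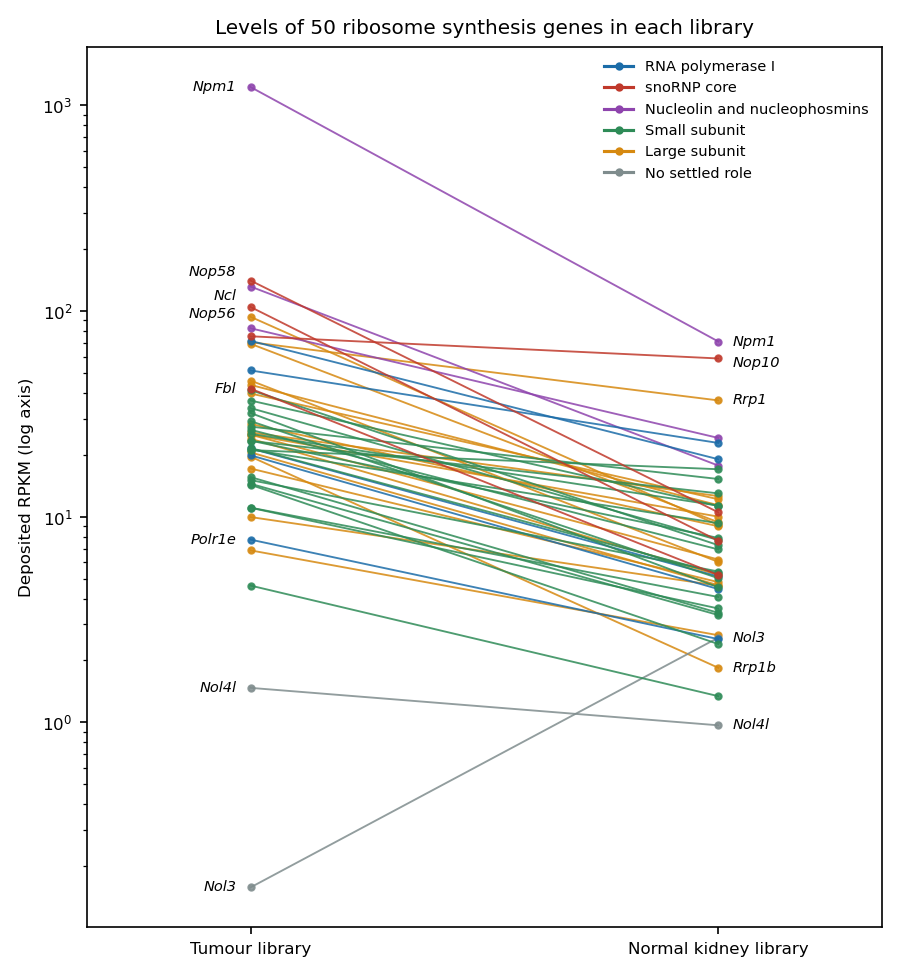
Deposited RPKM on a log axis for the 50 measured genes, tumour library on the left and normal kidney library on the right; each line joins the values of 1 gene and its colour gives the role. Npm1 heads both columns with 1225 RPKM in the tumour and 71.0 in the normal kidney, Nop10 is nearly level, and Nol3 is the line that runs the other way.

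The small subunit processome, which folds and cuts the part of the precursor that becomes the small subunit, had 20 measured genes, of which 15 were higher and 5 neither. Their median log2 ratio was 1.39, and 31.2% of all measured genes were higher. Utp14a (chromosome X, 48256934 to 48282449), known in yeast as the cofactor of a helicase, led with 2557 reads in the tumour and 443 in the normal kidney, 5.51-fold higher (4.98 to 6.11). Nol10 (chromosome 12, 17348493 to 17430095), a processome protein, had 1405 reads in the tumour and 288 in the normal kidney and was 4.65-fold higher (4.10 to 5.30). Rrp9 (chromosome 9, 106477309 to 106485415), a protein of the snoRNP around which the processome forms, had 1471 and 309 reads in tumour and normal kidney and was 4.54-fold higher (4.01 to 5.15). Nol11 (chromosome 11, 107166661 to 107189381), a processome protein also needed for transcription of the precursor in human cells, had 4298 reads in the tumour and 923 in the normal kidney and was 4.44-fold higher (4.14 to 4.77). The intervals of Nol10, Rrp9 and Nol11 overlap, so their order is not resolved.

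The middle of this group held Utp15, Mphosph10, Rrp12, Nop14, Utp18, Utp23, Utp3, Utp14b, Utp20, Nol6 and Nop9, with ratios between 3.58 for Utp15 and 2.13 for Nop9. In RPKM these 11 genes lay between 4.62 for Utp23 and 36.7 for Utp3 in the tumour, and between 1.34 for Utp23 and 11.3 for Utp3 in the normal kidney. Utp20, a large scaffold protein, had the most reads of them, 6812 in the tumour and 2793 in the normal kidney, and was 2.33-fold higher (2.23 to 2.43). Rrp12, which takes part in export of the small subunit precursor, was 3.40-fold higher (3.10 to 3.74), and Mphosph10, a processome core protein, 3.43-fold (3.15 to 3.74). Utp23 had the fewest reads, 447 in the tumour and 158 in the normal kidney, and was 2.70-fold higher (2.25 to 3.26). The processome proteins Rrp36, Utp11l, Utp6 and Rrp7a had ratios above 1 but short of 2-fold. Rrp36 had 839 reads in the tumour and 448 in the normal kidney, a ratio of 1.79 (1.59 to 2.01), and Utp11l had 792 and 432 reads in tumour and normal kidney, a ratio of 1.75 (1.55 to 1.97). Utp6 had 2983 reads in the tumour and 2020 in the normal kidney (1.41, 1.33 to 1.49), and Rrp7a had 1766 and 1197 reads in tumour and normal kidney (1.41, 1.31 to 1.52). Of the 20 genes of this group Utp6, Rrp7a and Nol7 have the ratios closest to 1. The span of Rrp7a overlaps that of Serhl on the other strand by 826 bases, and that of Nop9 overlaps Cideb by 1580 bases. Serhl had 149 reads in the tumour and 1315 in the normal kidney, and Cideb 25 and 2107. Since the strand setting of counting is not known, such reads may enter the counts of Rrp7a and Nop9, which was not tested. Nol7 (chromosome 13, 43398376 to 43402858) had 1260 reads in the tumour and 1239 in the normal kidney, a ratio of 0.970 (0.896 to 1.05), and together with Nop10 it is 1 of 2 measured genes of the set whose interval included 1.

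Utp14b (chromosome 1, 78657825 to 78667601) is a retrogene copy of Utp14a known in the mouse for its part in sperm formation. It had 1353 reads in the tumour and 534 in the normal kidney and was 2.42-fold higher (2.19 to 2.68). It took 34.6% of the reads of the pair in the tumour (33.1% to 36.1%) and 54.7% in the normal kidney (51.5% to 57.8%). Its model is the longer one, 3692 bases against 2416 for Utp14a, and per length it stood below Utp14a in both libraries. In RPKM Utp14a had 31.9 in the tumour and 4.54 in the normal kidney, and Utp14b had 11.0 and 3.58. The gene model of Utp14b starts at the same base and on the same strand as that of Acsl3, an acyl-CoA synthetase gene. Acsl3 had 1846 reads in the tumour and 1900 in the normal kidney, so part of the Utp14b count may belong to Acsl3. The share of such reads was not tested.

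Large subunit assembly factors had 16 measured genes, of which 12 were higher and 4 neither, with a median log2 ratio of 1.54. Among all measured genes 31.2% were higher. Rrp1b (chromosome 17, 32036162 to 32062862), a nucleolar protein that also binds chromatin, had 3114 reads in the tumour and 357 in the normal kidney, 124 against 14.8 CPM, and was 8.32-fold higher (7.46 to 9.31). Gnl3 (chromosome 14, 31012433 to 31019131), nucleostemin, a GTPase known from stem and tumour cells, had 5935 reads in the tumour and 703 in the normal kidney, 235 against 29.2 CPM, and was 8.05-fold higher (7.45 to 8.72). Rrp15 (chromosome 1, 186721087 to 186749358), an assembly factor, had 1837 and 294 reads in tumour and normal kidney and was 5.96-fold higher (5.27 to 6.77). Nop2 (chromosome 6, 125131883 to 125144753), a methyltransferase of ribosomal RNA long known as a proliferation antigen, had 5986 reads in the tumour and 990 in the normal kidney and was 5.77-fold higher (5.39 to 6.18). The intervals of Rrp1b and Gnl3 overlap and lie above those of Rrp15 and Nop2.

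Pes1, Bop1 and Wdr12 form the PeBoW complex, which acts in maturation of the large subunit RNA. Wdr12 had 1985 reads in the tumour and 547 in the normal kidney and was 3.46-fold higher (3.15 to 3.81). Pes1 had 4198 and 1330 reads in tumour and normal kidney and was 3.01-fold higher (2.83 to 3.21), and Bop1 had 2303 and 893 and was 2.46-fold higher (2.28 to 2.66). Per length, Bop1 stood at 0.646 times the RPKM of Pes1 in the tumour and 0.790 times in the normal kidney, and Wdr12 at 0.470 and 0.409 times in tumour and normal kidney. The remaining higher genes were Nip7, Nol9, Nol8, Gnl2 and Nol12, with ratios between 3.59 for Nip7 and 2.02 for Nol12. The ribosomal RNA methyltransferase Rrp8 had 941 reads in the tumour and 532 in the normal kidney, a ratio of 1.69 (1.52 to 1.88), and Gnl3l had 4137 and 2473 reads in tumour and normal kidney, a ratio of 1.60 (1.52 to 1.68). Rrp1 had 4663 reads in the tumour and 2961 in the normal kidney, a ratio of 1.502 (1.43 to 1.57), the smallest of the group. Nop16 had 1436 reads in the tumour and 699 in the normal kidney, a ratio of 1.96 (1.79 to 2.15). It passed 2-fold with at least 100 reads per gene and under 4 of the other scalings.

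Paralogs inside this group differed in both libraries. Rrp1b made up 40.0% of the reads of Rrp1 and Rrp1b together in the tumour (38.9% to 41.1%) and 10.8% in the normal kidney (9.72% to 11.9%). Among the GTPases Gnl2, Gnl3 and Gnl3l, Gnl3 took 45.1% of reads in the tumour (44.3% to 46.0%) and 16.3% in the normal kidney (15.2% to 17.4%). Gnl3l, its closest relative, took 31.5% in the tumour (30.7% to 32.3%) and 57.2% in the normal kidney (55.7% to 58.7%). Such shares do not depend on the scaling of the libraries, but they do depend on model length. The models of Gnl3l, Gnl2 and Gnl3 have 4861, 2334 and 1911 bases, and those of Rrp1b and Rrp1 4793 and 1995. In RPKM Gnl3l had 25.7 in the tumour and 12.6 in the normal kidney, Gnl2 39.7 and 12.2, and Gnl3 93.6 and 9.10. Rrp1b had 19.6 RPKM in the tumour and 1.84 in the normal kidney, and Rrp1 70.5 and 36.7.

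The rule also took 3 genes named for the nucleolus that have no settled part in ribosome synthesis. Nol3 (chromosome 8, 105276447 to 105281939), which encodes an apoptosis repressor known from heart and skeletal muscle, had 15 reads in the tumour and 299 in the normal kidney, 0.595 against 12.4 CPM, and was 20.9-fold lower (12.5 to 37.8). It is the lower gene of the set, and its span overlaps that of 4931428F04Rik on the other strand. Nol4l had 312 reads in the tumour and 250 in the normal kidney, a ratio of 1.19 (1.005 to 1.41). Nol4, which is made mainly in nervous tissue, had 11 reads in the tumour and 0 in the normal kidney and was not measured. With that 0 set to the floor of 3 counts its ratio was 3.50, with an interval that starts at 2.39. Without these genes, 37 of 48 were higher and none was lower, beside 31.2% and 28% of all measured genes. The median log2 ratio of the 48 was 1.57.

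Further genes of the pathway outside the rule were taken from the lists. Over 124 measured genes of the pooled lists, 92 were higher and 1 lower, with a median log2 ratio of 1.52. Among all measured genes 31.2% were higher and 28% lower. Of 34 other small subunit factors 28 were higher and none lower, with a median of 1.49. Wdr43, of the early processome, was 6.19-fold higher (5.81 to 6.60) and Heatr1, a large processome protein, 5.06-fold (4.77 to 5.37), while the helicase Ddx52 had the lowest ratio, 1.31 (1.23 to 1.40). Of 37 other large subunit factors 29 were higher and none lower, with a median of 1.62. Tex10 was 9.26-fold higher (8.28 to 10.4) and the ATPase Mdn1, which strips factors from the large subunit precursor, 8.41-fold (8.04 to 8.80), and Sbds, a late maturation factor, had a log2 ratio of -0.44.

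Nucleases and their cofactors were listed apart, beside all measured genes with 31.2% higher and 28% lower. Of 14 genes of the RNA exosome and its cofactors 8 were higher and none lower, with a median of 1.10. The catalytic subunit Dis3 was 6.74-fold higher (6.13 to 7.42) and Exosc8 6.38-fold (5.40 to 7.57), and the cofactor C1d had a log2 ratio of -0.85. Of 12 genes of RNase MRP and RNase P 6 were higher and 1 lower, with a median of 0.99. Rpp25 had 344 reads in the tumour and 0 in the normal kidney. With that 0 set to the floor of 3 counts its ratio was 109, with an interval that starts at 88.5. Rpp30 was 3.69-fold higher (3.07 to 4.45). Pop5, a subunit of both enzymes, was the lower gene, 2.35-fold (2.12 to 2.62). Rmrp, the RNA of RNase MRP, had 177282 reads in the tumour and 51957 in the normal kidney and was 3.26-fold higher (3.22 to 3.29).

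The product of RNA polymerase I was seen only as what ribosomal RNA depletion had left. Rn45s, the precursor transcript, had 569883 reads in the tumour and 89071 in the normal kidney, 6.10-fold higher (6.06 to 6.15). How far each library was depleted was not tested, so this ratio does not measure the output of the polymerase. Myc had 468 reads in the tumour and 73 in the normal kidney and was 6.12-fold higher (4.77 to 7.94), Mycn had 2033 and 51 reads in tumour and normal kidney (38.0-fold, 28.8 to 51.3), and Mycl 1441 and 34 (40.4-fold, 28.8 to 58.6). Counts of Myc do not tell the transgene from the endogenous gene.

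The binding sequence of Myc, shared with several clock factors, is the E-box, CACGTG, and promoters of the set were searched for it. RefSeq promoters on GRCm38.p6, each 250 bases before to 50 after a start site, were found for 39 of the 52 genes by gene identifier. CACGTG, which reads the same on both strands, occurred in 7 of the 39 genes, 17.9%, and in 2187 of 27025 genes of the whole promoter table, 8.09%. The exact 95% interval of the share in the set, 7.53% to 33.5%, includes that of all genes. The 7 genes were Nop2, Nol11, Pes1, Utp18, Utp14b, Utp20 and Rrp7a. Their median ratio was 2.99, between 1.41 and 5.77, and that of the 32 genes without it was 3.18, between 0.970 and 10.7. A match is a description of letters and says nothing of binding. The 250 bases before the start are printed for Nop2 and Nol11, which have CACGTG and stand high in their groups, for Rrp7a, which has it and is short of 2-fold, and for Nop56, which lacks it and has the highest ratio of the promoters searched; capitals mark CACGTG.
Nop2 (chr6:125131633-125131882, plus strand): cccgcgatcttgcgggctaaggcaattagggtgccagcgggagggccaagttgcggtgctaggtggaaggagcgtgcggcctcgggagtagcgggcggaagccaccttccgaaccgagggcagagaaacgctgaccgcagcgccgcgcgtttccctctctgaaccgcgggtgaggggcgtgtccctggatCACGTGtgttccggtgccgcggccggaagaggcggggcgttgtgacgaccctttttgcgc
Nol11 (chr11:107189382-107189631, minus strand): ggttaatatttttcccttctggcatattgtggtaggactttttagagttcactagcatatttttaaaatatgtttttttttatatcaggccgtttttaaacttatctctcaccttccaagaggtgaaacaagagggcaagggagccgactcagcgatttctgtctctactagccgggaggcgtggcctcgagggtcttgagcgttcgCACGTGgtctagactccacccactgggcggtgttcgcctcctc
Rrp7a (chr15:83122802-83123051, minus strand): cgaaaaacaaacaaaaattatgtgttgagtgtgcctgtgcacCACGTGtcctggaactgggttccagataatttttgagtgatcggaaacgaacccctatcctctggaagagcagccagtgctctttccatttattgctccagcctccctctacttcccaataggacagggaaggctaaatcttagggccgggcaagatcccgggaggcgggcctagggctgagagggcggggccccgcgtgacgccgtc
Nop56 (chr2:130274162-130274411, plus strand): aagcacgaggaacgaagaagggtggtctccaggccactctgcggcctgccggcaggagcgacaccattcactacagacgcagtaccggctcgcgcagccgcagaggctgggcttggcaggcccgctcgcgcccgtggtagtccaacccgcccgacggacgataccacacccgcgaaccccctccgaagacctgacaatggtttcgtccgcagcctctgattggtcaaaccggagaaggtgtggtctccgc

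In Nop2 the E-box began 60 bases before the start, in Nol11 43 bases, in Utp18 20 bases, in Utp14b 63 bases and in Rrp7a 208 bases before it. In Pes1 it began 3 bases and in Utp20 38 bases after the start. When CACGCG was allowed as well, read on either strand, 46.2% of the 39 genes and 17.2% of all genes had a match.

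Marker genes of the cells in each tissue differed at the same time, beside 31.2% of all measured genes higher and 28% lower. All 8 proximal tubule markers were lower in the tumour library, with summed levels of 840 CPM in the tumour and 50220 CPM in the normal kidney, and all 6 markers of the distal nephron and collecting duct were lower, with 48.9 and 7116 CPM in tumour and normal kidney. No marker of these lists was at 0 reads in either library. Of 4 podocyte markers 2 were lower and none higher, with 212 and 330 CPM in tumour and normal kidney. All 8 markers of dividing cells were higher, with 2932 CPM in the tumour and 58.4 CPM in the normal kidney, and all 8 pluripotent cell markers, with 1939 and 26.6 CPM, of which 5 were at 0 in the normal kidney. That list includes Pou5f1 and Sox2, for which counts do not tell transgene from endogenous gene either. Of 4 measured leukocyte markers 3 were higher (92.4 and 29.2 CPM in tumour and normal kidney), of 6 fibroblast markers 4 were higher (928 and 259 CPM), and of 5 endothelial markers 3 were lower (106 and 369 CPM). Their part in the differences of the ribosome synthesis genes was not tested.

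Scaling moved the level of all genes together. Of all calls 52.8% were higher with TMM, 59.3% with the upper quartile, 62.5% with header totals and 67.6% with plain library sums, and the median over all genes was 0.32, 0.44 and 0.64 on the log2 scale under the last 3. The median of the 50 genes stood 1.44 above that of all genes under these scalings, and 1.46 above it with RPKM plus 0.1. A scaling shifts every log2 ratio by the same amount, so this distance could not change and is no check of the result. Only the added 0.1 could move it. The number of higher genes of the set was 37, 41, 43 and 46 under TMM, upper quartile, header totals and plain sums, while 31.2%, 35.6%, 37.9% and 42.2% of all measured genes were higher. Size factors from the median of ratios gave 37 higher genes of the set beside 31.1% of all genes, and RPKM plus 0.1, judged by fold alone, gave 43 beside 36.4%.

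**Figure D4:**
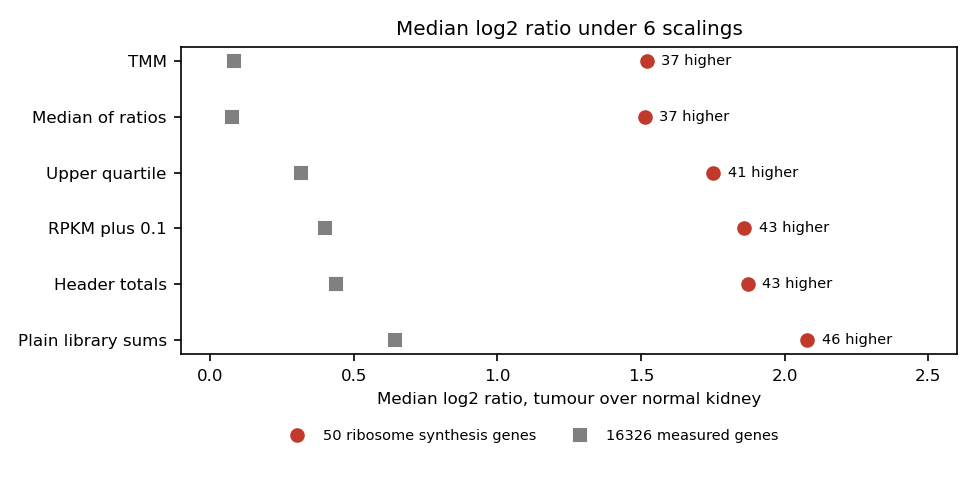
Median log2 ratio, tumour over normal kidney, of the 50 measured ribosome synthesis genes (circles, with the number called higher) and of all 16326 measured genes (squares) under 6 scalings. The distance between circle and square is 1.44 to 1.46 throughout, and the number called higher runs between 37 and 46.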

How the data were processed

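Per the labels' protocols, stranded libraries were made from total RNA after ribosomal RNA depletion. For 32958 gene models of UCSC knownCanonical the authors deposited exon read counts, as whole numbers, and RPKM values from the same counts, with totals of 33169818 reads (tumour) and 40408775 reads (normal) per the file headers. Counted reads came to 20836819 in the tumour and 29258428 in the normal library. STAR 2.5.0c, HOMER, bcl2fastq and the build mm10 are named in the submitters' processing notes. The strand setting of counting, and the treatment of reads with several mapping places, are not given in the sources used here.

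The gene model with the most reads stood for a symbol, and 16326 symbols had at least 20 reads. Counts were scaled with TMM (edgeR 4.0.16, R 4.3.3; factors 1.21 for the tumour and 0.824 for the normal library) over these symbols. Ratios have exact conditional Clopper-Pearson 95% intervals (scipy 1.17.1, Python 3.11.15). A count of 0 was set to a floor of 3 counts, equal to 0.119 CPM in the tumour and 0.125 CPM in the normal library. Intervals cover counting error only, since with 1 library per group the variation between animals and libraries cannot be estimated. PCR copies are not told apart, so the intervals may be too narrow even for counting error. Promoters came from RefSeq and snoRNA sequences from GENCODE M21. Alternatives were other scalings, read minimums, floors, folds, summed models and RPKM plus 0.1.

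The genes, roles and lists were chosen with earlier results of these data known. By a fixed rule, values are given for all polymerase I, snoRNP and chaperone genes, for the 4 largest and 4 smallest ratios of the other roles, for genes under 20 reads and for those whose call changes with the scaling. In each further list values are given for the 2 largest ratios and the smallest at a mean of at least 1 CPM, and for Rn45s, Rmrp and Myc. Others named were chosen after their values were seen.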

Additional observations from a re-analysis of the deposited data

How the results depend on the processing

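Of the 50 measured genes, 41 kept their call under every alternative tried on single genes, and 37 were higher in each of them. The other 9, Gnl3l, Nop16, Polr1d, Rrp1, Rrp36, Rrp7a, Rrp8, Utp11l and Utp6, passed 2-fold under at least 1 of them, and none turned round. With plain library sums the median log2 ratio of the 50 genes was 2.08, of polymerase I 2.12, of the snoRNP core 3.58, of the small subunit genes 1.95, of other small subunit factors 2.05 and of other large subunit factors 2.17, and 5 subunits each of polymerases II and III were higher. With header totals the medians of the 50 genes, polymerase I and the other large subunit factors were 1.87, 1.91 and 1.97, and with RPKM plus 0.1 they were 1.86, 1.91 and 1.96. A 4-fold threshold left 13 higher genes of the set, beside 18.5% of all genes. Leaving out genes whose span overlaps another gene model in part, an alternative chosen after seeing the data, left 38 genes, 28 higher and 0 lower. With them left out, 31.2% of all measured genes were higher and 28% lower. Allowing CACGCG moved the share of genes with a promoter match to 46.2% in the set (30.1% to 62.8%) and 17.2% over all genes. No paired analysis was possible because each group has 1 library. Low read numbers limit the snoRNA models, Npm2 and Nol4.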
